A study of Mus musculus with 4 samples.

Results

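The drug efflux ABC transporters described here are 7 genes, Abcb1a, Abcb1b, Abcg2, Abcc1, Abcc4, Abcc5 and Abcc6, taken by symbol from the 32285 genes of the count tables. Unique molecular identifiers (UMIs), each standing for a captured RNA molecule, were counted per cell in brains of C57BL6 mice after a sort on CD31, a surface protein of endothelial cells. Of 4 libraries, 2 came from mice fed for 1 month on a diet with PLX5622 at 1200 ppm, an inhibitor of the receptor CSF1R that depletes microglia. The other 2 came from mice fed a control diet. Meninges, cerebellum and olfactory bulbs had been removed, so the cells stand for the remaining brain. The labels state that 3 mice supplied both libraries of a diet, so the 2 libraries of a diet may share animals. All p-values below therefore measure the spread between libraries, which may be partly technical.

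ATP-binding cassette (ABC) transporters use the energy of ATP to move substrates across membranes. In the blood-brain barrier, P-glycoprotein and the breast cancer resistance protein sit in the blood-facing membrane of endothelial cells and return many drugs and toxins to the blood. In rodents P-glycoprotein is encoded by the neighbouring genes Abcb1a and Abcb1b, and Abcg2 encodes the breast cancer resistance protein. Abcc1, Abcc4, Abcc5 and Abcc6 belong to the multidrug resistance-associated proteins. Abcc1 exports glutathione and glucuronide conjugates, Abcc4 and Abcc5 export cyclic nucleotides and nucleotide analogues, and Abcc6 is best known from the mineralisation disease that follows its loss in humans.

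On the mouse genome GRCm38, Abcb1a (ENSMUSG00000040584) lies on the plus strand of chromosome 5 from 8660077 to 8748575, and Abcb1b (ENSMUSG00000028970) starts 49571 bases further on and runs from 8798147 to 8866315. Abcg2 (ENSMUSG00000029802) lies on chromosome 6 from 58584523 to 58695676. Abcc1 (ENSMUSG00000023088) and Abcc5 (ENSMUSG00000022822) lie on chromosome 16, from 14361558 to 14475737 and from 20331303 to 20426394. Abcc4 (ENSMUSG00000032849) lies on chromosome 14 from 118482692 to 118706219, and Abcc6 (ENSMUSG00000030834) on chromosome 7 from 45967555 to 46030302. All 7 are protein-coding, with 16 exons in the longest coding transcript of Abcg2 and 28 to 31 in the others. In the annotation, another gene on the same strand overlaps Abcb1a, Abcb1b, Abcc1 and Abcc4, and reads from such a stretch are of uncertain origin.

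Abcb1a and Abcb1b are close copies, so their counts need care. Their coding sequences were identical at 87.7% of 3840 aligned positions. The kit reads RNA near its 3' end, where they differ more. None of the 31-base words in the last 500 bases of the Abcb1a transcript occurred in the Abcb1b transcript (0%), while 8.30% of those of Abcb1b occurred in Abcb1a. Reads from the shared stretch cannot be assigned to either gene with certainty, so Abcb1b is the less certain of the pair. The lines below show the last ungapped 120 coding bases of the GRCm38 transcripts (GENCODE), coding positions 3682 to 3801 of Abcb1a and 3688 to 3807 of Abcb1b, with the 2 differing positions in capitals.
Abcb1a: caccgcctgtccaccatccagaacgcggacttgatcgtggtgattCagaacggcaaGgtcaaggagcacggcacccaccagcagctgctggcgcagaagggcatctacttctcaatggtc
Abcb1b: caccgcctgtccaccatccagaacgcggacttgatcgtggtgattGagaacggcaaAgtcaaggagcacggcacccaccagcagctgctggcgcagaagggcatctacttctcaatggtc

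RefSeq promoter windows on GRCm38.p6, from 250 bases before to 50 after an annotated start, were held for 5 of the 7 genes, and for Abcg2 the one of 3 that lies nearest its GENCODE start is shown. Those of the P-glycoprotein pair are shown because the copies differed most in level, and those of Abcg2 and Abcc5 because their levels ran in opposite directions along the vessels. Capitals mark matches on either strand to 6 motifs, none of which overlapped another match. They were the GC box GGGCGG, the CCAAT box CCAAT, the aryl hydrocarbon receptor core GCGTG, the Nrf2 element TGACNNNGC, the nuclear receptor core AGGTCA and the RBPJ core TGGGAA. Of 32851 windows of the same length, 35.7%, 37.4%, 32.4%, 12.4%, 16.3% and 25.6% held these motifs, in that order. The windows were chr5:8566841-8567140 (plus strand) for Abcb1a, chr5:8797897-8798196 (plus) for Abcb1b, chr6:58584283-58584582 (plus) for Abcg2 and chr16:20426345-20426644 (minus) for Abcc5. The RefSeq start of Abcb1a lay 92986 bases upstream of its GENCODE start, against 0 bases for Abcb1b and Abcc5 and 10 for Abcg2.
Abcb1a: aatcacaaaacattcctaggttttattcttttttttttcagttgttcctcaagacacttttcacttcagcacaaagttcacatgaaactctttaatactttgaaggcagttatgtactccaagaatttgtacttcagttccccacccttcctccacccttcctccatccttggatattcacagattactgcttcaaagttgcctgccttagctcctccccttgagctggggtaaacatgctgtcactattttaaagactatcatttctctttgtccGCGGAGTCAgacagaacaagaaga
Abcb1b: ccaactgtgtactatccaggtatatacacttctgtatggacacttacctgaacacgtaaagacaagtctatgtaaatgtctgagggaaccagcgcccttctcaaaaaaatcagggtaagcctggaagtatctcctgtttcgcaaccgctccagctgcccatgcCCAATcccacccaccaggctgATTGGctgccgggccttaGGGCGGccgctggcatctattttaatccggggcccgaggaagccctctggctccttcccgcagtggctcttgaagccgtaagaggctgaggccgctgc
Abcg2: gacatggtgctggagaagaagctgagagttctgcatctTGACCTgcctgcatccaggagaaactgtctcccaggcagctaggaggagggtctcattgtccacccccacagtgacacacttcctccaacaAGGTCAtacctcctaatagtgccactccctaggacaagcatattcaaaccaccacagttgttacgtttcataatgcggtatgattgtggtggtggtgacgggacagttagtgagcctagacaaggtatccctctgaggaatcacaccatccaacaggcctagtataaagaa
Abcc5: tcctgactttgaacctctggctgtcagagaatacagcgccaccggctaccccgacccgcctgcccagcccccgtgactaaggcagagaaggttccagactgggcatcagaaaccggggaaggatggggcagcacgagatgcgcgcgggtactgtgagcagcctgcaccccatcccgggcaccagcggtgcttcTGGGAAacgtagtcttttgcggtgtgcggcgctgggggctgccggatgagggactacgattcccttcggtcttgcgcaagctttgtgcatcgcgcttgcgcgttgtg
The Abcb1a window held 1 Nrf2 element, the Abcb1b window 2 CCAAT boxes and 1 GC box. The Abcg2 window shown held 2 nuclear receptor cores and the Abcc5 window 1 RBPJ core. Of the Abcg2 windows not shown, the second held 2 GC boxes and 1 CCAAT box. The third held 4 GC boxes, 1 aryl hydrocarbon receptor core and 1 nuclear receptor core. A match describes these letters only.

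Of all barcodes, 14864 cells held at least 1000 UMIs and 500 genes and at most 10% mitochondrial UMIs, with 3989 and 3670 in the PLX5622 diet libraries and 1696 and 5509 in the control diet libraries. Medians of 3834 to 5922 UMIs per cell were reached, and any 2 libraries shared 1 to 6 kept barcodes. Clusters were built without any ABC gene and named from markers, with endothelial-like as the default where no other class was reached and depth was not low. Endothelial-like cells numbered 13052, and after thinning each cell to 1000 UMIs 99.5% to 99.9% of them held Cldn5, the claudin of the barrier. Along the vessel they comprised 2386 arterial-like, 3347 arterial-side capillary-like, 4246 venous-side capillary-like and 1791 vein-like cells, and 1282 had no named zone. Mural cells, the pericytes and smooth muscle cells around the endothelium, passed the CD31 sort in small numbers (98 pericyte-like and 200 smooth muscle-like cells with little endothelial RNA). The leading genes of the arterial-side capillary cluster included stress genes such as Atf3. Those of the vein cluster included Icam1 and Il1r1, which were among the vein markers used for naming. The name arterial-side capillary is weak. Its markers averaged 1.19-fold in the cluster so named, with 3 past the limit, against 1.26-fold in the larger arterial cluster of 2266 cells. Levels in this zone should be read with that limit.

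Over all endothelial-like cells the members fell into a steep order, with Abcb1a and Abcg2 far above the rest. Levels are counts per 1e6 UMIs of the summed cells of a library (CPM). Each UMI stands for 1 molecule whatever the length of its transcript, so these levels were compared between genes without length scaling. Abcb1a averaged 1566 ± 145 CPM and Abcg2 808 ± 51.1 CPM (SD, n = 4 libraries for these and the following means). Abcc4 followed at 192 ± 22.9 CPM and Abcc5 at 26.1 ± 3.17 CPM. Abcc6 averaged 14.8 ± 3.55 CPM, Abcc1 4.84 ± 0.59 CPM and Abcb1b 1.55 ± 0.37 CPM. No 2 neighbours in this order overlapped in their 4-library ranges. Abcb1a supplied 57.8% to 62.9% of all member UMIs and Abcg2 27.9% to 32.4%.

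Within the P-glycoprotein pair, nearly all molecules were assigned to Abcb1a. Abcb1b made up 0.0931% and 0.133% of the pair's UMIs in the PLX5622 diet libraries, against 0.0925% and 0.0774% in the control diet libraries. In total 113 Abcb1b UMIs stood beside 115365 Abcb1a UMIs. At 1000 UMIs per cell, 74.2% to 78.9% of endothelial-like cells held an Abcb1a UMI, 50.7% to 54.8% an Abcg2 UMI and 14.1% to 18.0% an Abcc4 UMI. The same shares in smooth muscle-like cells were 0% for Abcb1a, 1.75% to 5.88% for Abcg2 and 0% for Abcc4, at a median depth before thinning of 8422 UMIs per cell, against 5110 in endothelial-like cells.

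Along the endothelium, the ranges of Abcb1a and Abcc4 over libraries overlapped between zones, Abcg2 was higher from the capillaries on than in arteries, and Abcc5 was highest in arteries. The clusters come from the same cells as these levels, so zone differences are given as descriptions with no test. Of 5 members with a mean of at least 5 CPM over the zones, Abcg2 and Abcc5 had ranges that did not overlap between arterial-side capillary-like and arterial-like cells, where 13.7% of 9595 genes at that level did not overlap. Neither venous-side against arterial-side capillary-like cells (10.3% of genes) nor vein-like against venous-side capillary-like cells (11% of genes) separated any member. Between the ends, vein-like against arterial-like cells, Abcg2 and Abcc5 were again the members that did not overlap, where 21.5% of genes did not.

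Abcb1a had 1458 and 1450 CPM in arterial-like cells of the PLX5622 diet libraries, against 1730 and 1362 CPM in those of the control diet libraries. In vein-like cells it had 1655 and 1636 CPM in the PLX5622 diet libraries, against 1877 and 1536 CPM in the control diet libraries. The first control diet library was the highest of the 4 in every zone, and the spread between control libraries exceeded the difference between zones. Within each library the vein-like level was nevertheless the higher, by 0.16 ± 0.03 on the log2 scale (SD, n = 4), a ratio of 1.12. The mean over libraries was 1500 CPM in arterial-like, 1583 in arterial-side capillary-like, 1578 in venous-side capillary-like and 1676 CPM in vein-like cells.

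Abcg2 had the clearer zonal course. It had 658 and 675 CPM in arterial-like cells of the PLX5622 diet libraries, against 686 and 632 CPM in the control diet libraries. In arterial-side capillary-like cells it had 843 and 774 CPM with PLX5622 diet, against 782 and 740 CPM with control diet, above every arterial value. In venous-side capillary-like cells it had 953 and 919 CPM with PLX5622 diet, against 855 and 829 CPM with control diet. Vein-like cells held 965 and 927 CPM with PLX5622 diet, against 838 and 816 CPM with control diet, and these overlapped the venous-side capillary values. The vein-like over arterial-like difference was 0.42 ± 0.11 on the log2 scale (SD, n = 4), a ratio of 1.34, and had this direction in 4 of 4 libraries.

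Abcc5 ran the other way. Arterial-like cells held 38.9 and 36.2 CPM with PLX5622 diet, against 40.7 and 35.8 CPM with control diet. Arterial-side capillary-like cells held 30.1 and 25.5 CPM with PLX5622 diet, against 30.2 and 21.9 CPM with control diet, below every arterial value. The mean was 22.8 CPM in venous-side capillary-like cells. Vein-like cells held 18.7 and 20.8 CPM with PLX5622 diet, against 21.4 and 15.03 CPM with control diet. The vein-like level was lower than the arterial-like level in 4 of 4 libraries, with a log2 difference of -1.01 ± 0.19 (SD, n = 4), a ratio of 0.498. With cells assigned to zones by marker scores in place of clusters the difference was -0.69.

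Among the other multidrug resistance-associated proteins, Abcc4 differed little along the vessel, with means of 190, 184, 206 and 192 CPM in arterial-like, arterial-side capillary-like, venous-side capillary-like and vein-like cells. Within libraries it was higher in venous-side than in arterial-side capillary-like cells in 4 of 4, by 0.15 ± 0.11 on the log2 scale (SD). Abcc6 averaged 12.3, 15.03, 17.3 and 14.3 CPM in the same order, with overlapping ranges between neighbours. Within libraries it was higher in arterial-side capillary-like than in arterial-like cells in 4 of 4 (log2 difference 0.27 ± 0.14), higher again in venous-side capillary-like cells in 4 of 4 (0.22 ± 0.08), and lower in vein-like than in venous-side capillary-like cells in 4 of 4 (-0.30 ± 0.21). Abcc1 averaged 7.23 CPM in arterial-like cells and 3.62 CPM in vein-like cells. Its ranges of 1.61 to 5.66 CPM in vein-like cells and 4.52 to 9.50 CPM in arterial-like cells overlapped, although the vein-like level was lower in 4 of 4 libraries.

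**Figure D1:**
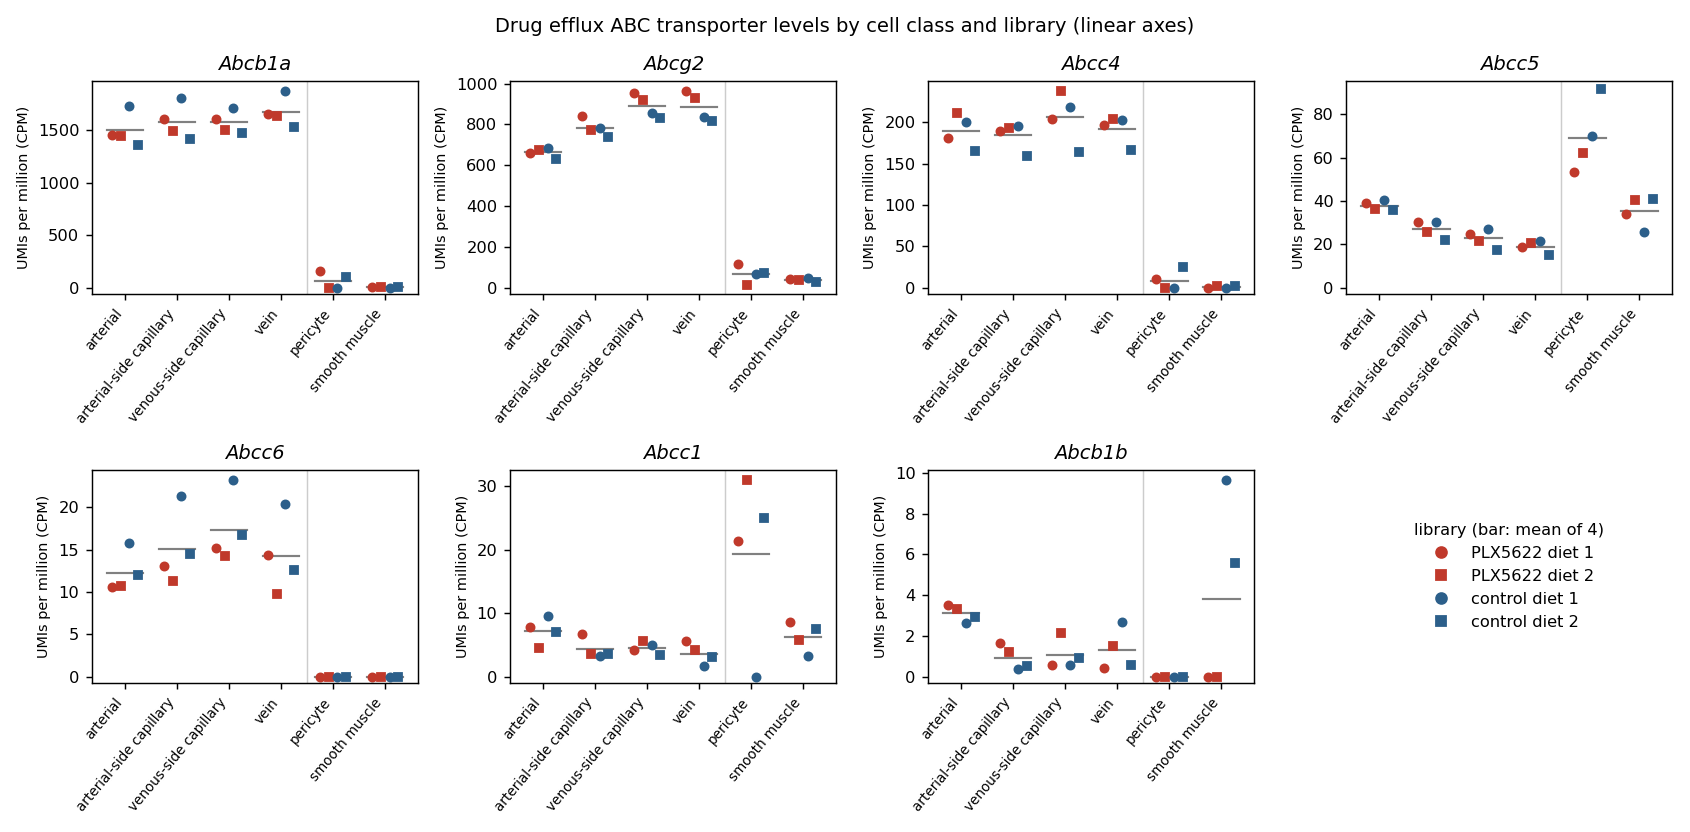
CPM (linear y axes) of each transporter in 6 cell classes, 1 point per library and a bar at the mean of 4, with PLX5622 diet in red and control diet in blue. Abcb1a and Abcc4 have overlapping ranges over the 4 endothelial zones, and Abcg2 is lowest and Abcc5 highest among them in arterial-like cells. Pericyte-like and smooth muscle-like cells hold far less Abcb1a, Abcg2 and Abcc4 than these zones.

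**Figure D2:**
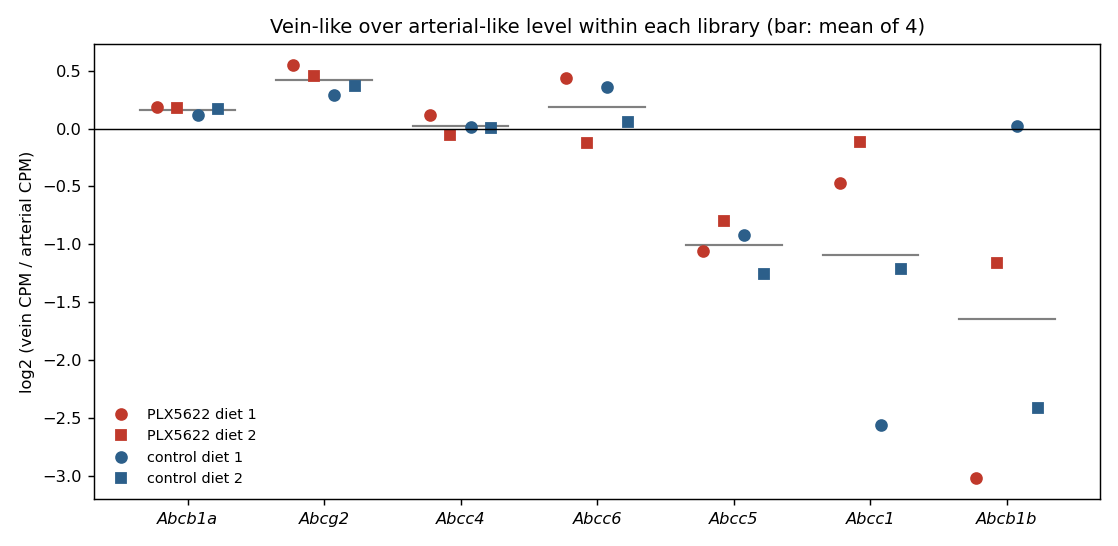
log2 ratio of the vein-like to the arterial-like CPM within each library, with a bar at the mean of 4. Abcb1a and Abcg2 are above 0 and Abcc5 and Abcc1 below 0 in all 4 libraries, and Abcb1b, with 15 UMIs in vein-like cells, is widely spread.

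Abcb1b, though rare, had its highest mean level among the endothelial zones in arteries, at 3.11 CPM. Smooth muscle-like cells averaged 3.81 CPM, from 6 Abcb1b UMIs. Arterial-like cells held 48 Abcb1b UMIs, 3.53 and 3.33 CPM with PLX5622 diet, against 2.64 and 2.94 CPM with control diet. Arterial-side capillary-like cells held 1.63 and 1.203 CPM with PLX5622 diet, against 0.368 and 0.523 CPM with control diet, below every arterial value. Vein-like cells held 0.435 and 1.49 CPM with PLX5622 diet, against 2.68 and 0.552 CPM with control diet, and overlapped the arterial-like cells through the first control diet library. The arterial-like class consisted of 2 clusters, and 22 of the 48 UMIs came from the smaller one, 120 cells led by Mgp, Clu and Fbln5, a matrix protein of elastic fibres. This cluster was singled out after its values had been seen. It held 28.7 and 14.7 CPM of Abcb1b with PLX5622 diet, from 27 and 33 cells, against 18.5 and 23.0 CPM with control diet, from 8 and 52 cells. The larger arterial cluster of 2266 cells held 2.08 and 2.33 CPM with PLX5622 diet, against 2.17 and 1.27 CPM with control diet.

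The 2 arterial clusters did not overlap in Abcb1b level in the 4 libraries, a description of a cluster picked after its values were seen. The smaller cluster gave 4 and 5 UMIs with PLX5622 diet, against 1 and 12 UMIs with control diet. The share of all genes that separate these clusters was not counted. An Abcb1b UMI was found in 15 of the 120 cells (12.5%, exact 95% binomial interval 7.17% to 19.8%), against 23 of 2266 cells of the larger cluster (1.015%, 0.644% to 1.52%) and 51 of 9384 cells of the other zones (0.543%, 0.405% to 0.714%). These intervals cover counting error only. Median depths were 7591, 5760 and 5278 UMIs per cell, and at 1000 UMIs per cell the shares were 2.5%, 0.132% and 0.0959%, from 3, 3 and 9 cells. Thus 3 UMI-bearing cells remained in the small cluster after thinning. In the same cluster Abcb1a was lower than in the larger one in each library, with 925 and 1019 CPM with PLX5622 diet, against 464 and 922 CPM with control diet, and so was Abcg2, with 294 and 365 CPM with PLX5622 diet, against 167 and 323 CPM with control diet. In the larger cluster Abcb1a had 1399 to 1767 CPM and Abcg2 658 to 702 CPM. Smooth muscle RNA was present in the small cluster, with 0 to 79.5 CPM of the actin gene Acta2, against 1.75 to 3.105 CPM in the larger one, and its part in the Abcb1b level was not tested.

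In mural cells Abcb1a and Abcg2 stood far below their endothelial level, while Abcc5 and Abcc1 stood near or above theirs. Abcg2 was still as frequent as Abcc5 in smooth muscle-like cells, with 64 against 63 UMIs. Smooth muscle-like cells held 34.2 and 40.4 CPM of Abcc5 with PLX5622 diet, against 25.8 and 40.9 CPM with control diet, overlapping the arterial-like range of 35.8 to 40.7 CPM. They held 42.7 and 36.5 CPM of Abcg2 with PLX5622 diet, against 48.3 and 27.9 CPM with control diet, below the arterial-like level by a factor of 0.0575. Abcb1a reached only 3.22 to 9.61 CPM there, from 11 UMIs. Abcc6 had 0 UMIs in smooth muscle-like cells, which allows levels of up to 5.58 to 9.67 CPM in the single libraries (3 counts each), and Abcc4 had 2 UMIs.

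Pericyte-like cells, 98 in number and 8 in the first control diet library, held 53.3 and 62.1 CPM of Abcc5 with PLX5622 diet, against 70.0 and 91.4 CPM with control diet. Each of these values was above every venous-side capillary-like value (17.6 to 27.2 CPM), from 22 UMIs in all. The share of all genes that separate these classes was not counted. Abcc1 gave 7 pericyte-like UMIs and a mean of 19.3 CPM, with 0 UMIs in the first control diet library. Abcb1a was found in 2 of the 4 pericyte-like sums, with 160 and 0 CPM with PLX5622 diet, against 0 and 108 CPM with control diet. Abcb1b and Abcc6 had 0 UMIs in these cells.

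Free RNA in the suspension carries endothelial transcripts into other droplets. In barcodes under 100 UMIs, Abcb1a stood at 1296 and 1152 CPM in the PLX5622 diet libraries, against 1201 and 1185 CPM in the control diet libraries. The UMIs of each member were therefore set against those of 4 endothelial defining genes, Cldn5, Pecam1, Cdh5 and Flt1, in the same sums. Mural clusters above 10% of the endothelial Cldn5 level had been set aside. The mural sums were thus chosen in part for a low count of Cldn5, and how far this raised the ratios was not tested. Defining UMIs numbered 240 in pericyte-like and 110 in smooth muscle-like cells. The intervals below cover the count of the member only and take these numbers as fixed, so they are too narrow. Of the pericyte-like ones, 97 and 7 came from the PLX5622 diet libraries, against 3 and 133 from the control diet libraries. Relative to endothelial-like cells, the Abcb1a ratio was 1.04 in pericyte-like cells (exact 95% Poisson interval 0.691 to 1.503) and 0.891 in smooth muscle-like cells (0.445 to 1.59). Both intervals hold 1, the proportion to endothelial RNA found in the endothelium, and at 28 and 11 UMIs a low level of its own in mural cells could not be told apart from carried-over RNA. The Abcc4 ratios of 1.21 and 1.32 rested on 4 and 2 UMIs.

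Abcg2, Abcc5 and Abcc1 did not keep the endothelial proportion in smooth muscle-like cells. There the ratio was 9.82 for Abcg2 (7.56 to 12.5, from 64 UMIs), 310 for Abcc5 (238 to 397) and 289 for Abcc1 (144 to 517, from 11 UMIs). Abcb1b gave 496 (182 to 1080) from 6 UMIs, all in the control diet libraries. In pericyte-like cells the ratio was 1.62 for Abcg2 (1.03 to 2.43), 49.7 for Abcc5 (31.1 to 75.2) and 84.2 for Abcc1 (33.9 to 174, from 7 UMIs). The lower bound for Abcg2 in pericyte-like cells lay close to 1, so a level of its own there was not resolved at this depth.

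**Figure D3:**
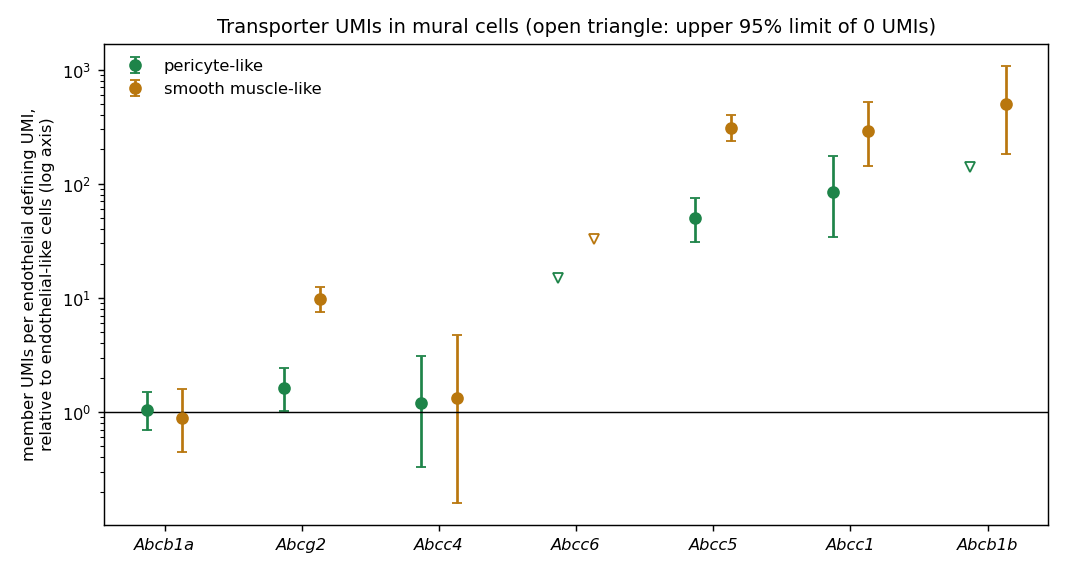
UMIs of each transporter per endothelial defining UMI in pericyte-like (green) and smooth muscle-like (orange) cells, relative to endothelial-like cells, on a log axis. The exact 95% Poisson intervals cover the transporter count only. Abcb1a and Abcc4 lie near 1, Abcg2 in smooth muscle-like cells at 9.82, and Abcc5 and Abcc1 far above 1, while open triangles give upper limits where a gene had 0 UMIs.

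Other droplet classes carried the transporters together with endothelial RNA. Red cell-marked droplets held 850 to 1210 CPM of Abcb1a beside 3734 to 5337 CPM of Cldn5, and platelet-marked droplets 1154 to 1698 CPM of Abcb1a. Astrocyte-marked droplets, 99 in number, held 51.6 to 105 CPM of Abcc5, above every endothelial-like sum (22.3 to 29.7 CPM). Here too the share of all genes that separate the classes was not counted.

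The diet comparison asked whether these pumps differed after microglial depletion. In endothelial-like cells no member passed edgeR's quasi-likelihood test at an adjusted p of 0.05 over all genes (0 of 7), where 1.1% of 12754 genes did. At an unadjusted p under 0.05 stood 1 of the 7 with edgeR, Abcc6, where 10.6% of genes did. DESeq2 also gave 0 calls, and its 1 member under that value was another, Abcg2, where 3.37% of genes were. The median log2 fold change, PLX5622 diet over control diet, was 0.19 over the 7 members and 0.00469 over all genes tested. CPM of both PLX5622 diet libraries lay on the same side of both control diet libraries for 2 of 7 members, Abcg2 (higher) and Abcc6 (lower), as for 41% of genes (15.4% higher and 25.6% lower).

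Abcb1a had 1569 and 1495 CPM in the PLX5622 diet libraries, against 1767 and 1434 CPM in the control diet libraries, and the diets overlapped. Its log2 fold change was -0.012 ± 0.14 (SE, 95% interval -0.30 to 0.28, edgeR adjusted p = 0.987). Abcg2 had 866 and 833 CPM with PLX5622 diet, against 784 and 751 CPM with control diet. Both PLX5622 diet values were higher, but the log2 fold change of 0.19 ± 0.12 had an interval from -0.062 to 0.45 and an edgeR adjusted p of 0.624.

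Abcc4 had 190 and 216 CPM with PLX5622 diet, against 201 and 162 CPM with control diet, a log2 fold change of 0.22 ± 0.11 (interval -0.0088 to 0.44, edgeR adjusted p = 0.501). It was 0.11 without the second control diet library, 0.12 without the second PLX5622 diet library, 0.30 without the first PLX5622 diet library and 0.32 without the first control diet library. Abcc6 had 13.3 and 11.98 CPM with PLX5622 diet, against 19.98 and 13.9 CPM with control diet, a log2 fold change of -0.33 ± 0.15 (interval -0.65 to -0.0028, edgeR adjusted p = 0.465). The first control diet library stood apart for Abcc6. Its log2 fold change was -0.15 without that library, -0.57 without the second control diet library, and -0.40 and -0.25 without the first and the second PLX5622 diet library. Abcc5 had 27.4 and 25.1 CPM with PLX5622 diet, against 29.7 and 22.3 CPM with control diet, with overlapping diets and a log2 fold change of 0.10 ± 0.12. Abcc1 (5.58 and 4.71 CPM with PLX5622 diet, against 4.91 and 4.16 CPM with control diet) and Abcb1b (1.46 and 2.00 CPM with PLX5622 diet, against 1.64 and 1.11 CPM with control diet) also overlapped. Their log2 fold changes were 0.25 ± 0.20 and 0.50 ± 0.35, with upper interval bounds of 1.60-fold and 2.36-fold for these rare transcripts. Both values moved far with the cells and libraries used. In cells with no mural or red cell UMI that of Abcc1 was 0.0012 and that of Abcb1b 1.19 (edgeR adjusted p = 0.404), and with 1 library left out Abcb1b ran from 0.20 to 0.67 and Abcc1 from 0.12 to 0.37.

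By zone the result was the same count, with 0 members past the threshold in each. The share of all genes called was 0.408% in arterial-like, 0.604% in arterial-side capillary-like, 0.924% in venous-side capillary-like and 1.54% in vein-like cells. In smooth muscle-like cells Abcg2 and Abcc5 passed the filter on low counts and neither passed the test, where 0.0531% of genes did. Pericyte-like cells were not tested, with 8 cells in the first control diet library. Over 27 tests of a member in a zone or in smooth muscle-like cells, 1 had an unadjusted p under 0.05, Abcc4 in venous-side capillary-like cells. Among all genes the share at that value was 6.85% in arterial-like, 7.41% in arterial-side capillary-like, 8.43% in venous-side capillary-like, 9.65% in vein-like and 4.71% in smooth muscle-like cells. The log2 fold change of Abcc4 there was 0.28 ± 0.12 (edgeR adjusted p = 0.475) and rested on single libraries. It was 0.094 without the second control diet library, 0.15 without the second PLX5622 diet library and 0.44 without the first control diet library.

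The Abcg2 difference between diets was small in arteries and larger toward the veins. Its log2 fold change was 0.049 ± 0.13 in arterial-like, 0.13 ± 0.13 in arterial-side capillary-like, 0.19 ± 0.13 in venous-side capillary-like and 0.22 ± 0.12 in vein-like cells (SE). In edgeR's quasi-likelihood test of a zone by diet interaction, with the library as a block, Abcg2 had an adjusted p of 0.724, so a change along the vessel was not shown. No member passed this test (0 of 7, and 0 at an unadjusted p under 0.05), where 0.831% of 11435 genes did and 7.21% stood at an unadjusted p under 0.05.

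**Figure D4:**
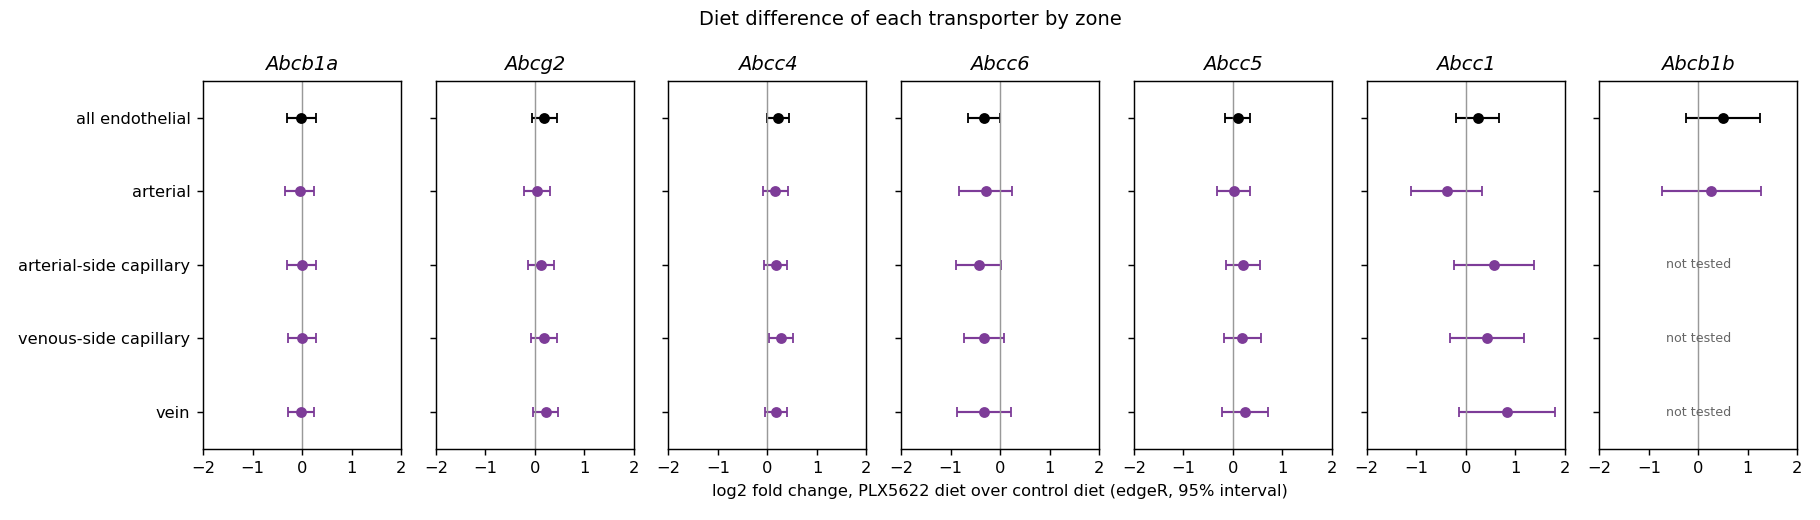
log2 fold change of each transporter, PLX5622 diet over control diet, in all endothelial-like cells (black) and by zone (purple), with 95% intervals from edgeR. No member passed the adjusted threshold in any of these rows, and Abcb1b did not pass the filter on low counts in 3 zones.

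Genes that work with the pumps were read from 4 lists in endothelial-like cells, with edgeR and all genes as background (1.1% called, and 10.6% at an unadjusted p under 0.05). Of regulators of efflux pump genes, 0 of the 17 tested of 20 passed, 3 with an unadjusted p under 0.05, and the median log2 fold change was -0.012. The most abundant was Ctnnb1, the transcriptional arm of Wnt signalling, with 763 and 746 CPM with PLX5622 diet, against 804 and 767 CPM with control diet. Nr3c1, the glucocorticoid receptor, and Nfe2l2, which encodes Nrf2, averaged 220 and 117 CPM over the 4 libraries. Nr1i2, the pregnane X receptor known to induce P-glycoprotein, was too low to test, with at most 0.351 CPM.

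Of membrane partners of P-glycoprotein, 0 of the 11 tested passed, 1 with an unadjusted p under 0.05, with a median of -0.052. Slc9a3r2 and Rdx, which tie membrane proteins to the actin skeleton, averaged 796 and 445 CPM, and Cav1, the coat protein of caveolae, 328 CPM. Of organic ion and drug uptake carriers, 0 of 13 tested of 16 passed, 3 with an unadjusted p under 0.05, with a median of -0.074. Slco1a4, a carrier of organic anions, had 1813 and 1581 CPM with PLX5622 diet, against 1946 and 1748 CPM with control diet, close to the level of Abcb1a. Slco1c1, the thyroxine carrier, and Slc22a8, an organic anion exchanger, averaged 1402 and 335 CPM. DESeq2 also gave 0 calls in these 3 lists.

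Among the other ABC genes, 22 of 43 were tested, 0 were higher, 2 fell and 20 did not pass. Both that fell are cholesterol exporters, already known from an earlier reading of these libraries. Abca1 had 20.3 and 21.6 CPM with PLX5622 diet, against 58.5 and 41.1 CPM with control diet, a log2 fold change of -1.17 ± 0.12 (edgeR adjusted p = 6.73e-05). Abcg1 had 11.2 and 7.37 CPM with PLX5622 diet, against 29.4 and 22.6 CPM with control diet, a log2 fold change of -1.44 ± 0.17 (edgeR adjusted p = 0.000189). The median log2 fold change of the 22 was 0.077, and the most abundant of them, Abcf1, a translation factor, averaged 112 CPM.

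The genes whose pattern was most like that of each member were read from 24 sums (6 classes in 4 libraries, log2 of CPM plus 1) among 3538 genes of at least 50 CPM. These sums share libraries and mainly separate endothelial from mural cells, so the correlations describe that contrast. Abcb1a was most like Cdh5 (VE-cadherin), Lef1 and Acvrl1, with Pearson's r of 0.997, 0.997 and 0.994. Abcg2 was most like Igf1r, Avl9 and S100a13 (r of 0.985, 0.984 and 0.982), and Abcc4 most like Clic5, AU021092 and Cyyr1 (0.993, 0.992 and 0.992). Abcc5 had looser company in Sema6d, Cd81 and Sh2b3 (0.920, 0.899 and 0.891). Abcb1b, Abcc1 and Abcc6 averaged under 10 CPM over these sums and were not ranked.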

How the data were processed

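Single-cell libraries were made with the 10x 3' v3.1 kit, per the labels. The authors deposited UMI counts for each gene in each barcode, whole numbers that were not normalized. The submitters' processing notes name Cell Ranger 6.0.1, Seurat 4.0 and the builds mm10 and mm39, while the file headers name Cell Ranger 4. The build and annotation of the counts are not given in the sources used here. Of 32285 gene IDs, 32158 were matched to GENCODE on GRCm38, which gave coordinates and transcripts.

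Cells were clustered with scanpy 1.11.5 and igraph 0.11.9 (2000 variable genes, 30 components, 15 neighbours, resolution 0.5), with every ABC gene left out. Endothelial-like cells were clustered again (20 components, resolution 0.6) without mitochondrial, interferon, stress, inflammatory, sterol and hypoxia genes, and mural cells with 1500 variable genes and 10 neighbours. Classes other than endothelial-like were named from at least 3 markers 4-fold higher than in the other cells. Zones needed 1.2-fold and at least 50 cells. Clusters with no such name and no low median UMIs were called endothelial-like by default. On average over the endothelial markers, 80.1% to 92.6% of their cells held a UMI of a marker. Subclusters of mural cells kept the name of their parent cluster unless set aside or renamed. No doublet caller was run. Clusters with markers of another class, and mural clusters above 10% of the endothelial Cldn5 level, were set aside as mixed droplets. The latter numbered 43 and 49 cells with PLX5622 diet and 22 and 76 with control diet. These limits, like the members and gene lists, were chosen with earlier results of these data known.

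UMIs were summed per library and class. Classes with at least 20 cells in every library were tested with edgeR 4.0.16 (filterByExpr, TMM factors, robust quasi-likelihood F test, Benjamini-Hochberg adjustment over all genes), with DESeq2 1.42.0 as an alternative. The test was tried before use on counts simulated from levels and spreads that edgeR had fitted to these same libraries. Such a trial checks the running of the test and cannot show that the fitted spread is right. Libraries held 11186648 to 38600208 UMIs. Exact Poisson and binomial intervals are 95% and cover counting error only, the Poisson ones that of the transporter count alone. The genes named are the 7 members, list genes past the threshold, otherwise the 3 of highest mean CPM in a list, and the 3 most similar genes of each member. Others named, such as Nr1i2 and the small arterial cluster, were chosen after their values were seen. The library chi-square per degree of freedom was at least 6.91, so no library was a copy of another. No deposited columns were left unused (0).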

Additional observations from a re-analysis of the deposited data

Results flagged for a closer look

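Abcb1b lay on opposite sides in different cell classes, a difference between classes that was not tested. It was picked by a search of the members and classes for such opposite sides. In endothelial-like cells both PLX5622 diet libraries lay on the same side of both control diet libraries for 41% of genes. No such share is given for the classes named here. In smooth muscle-like cells both PLX5622 diet libraries had 0 UMIs, from 55 and 57 cells, against 3 and 3 UMIs from 34 and 54 cells in the control diet libraries, a mean difference of -7.62 CPM, PLX5622 diet minus control diet. In arterial-like cells both PLX5622 diet libraries were higher, by a mean of 0.644 CPM from 48 UMIs in all, and in arterial-side capillary-like cells by 0.97 CPM from 17 UMIs. All of these rest on few molecules, and 0 UMIs in smooth muscle-like cells allow up to 8.55 and 5.76 CPM in the PLX5622 diet libraries. With the filter on low counts Abcb1b was not tested in smooth muscle-like or arterial-side capillary-like cells. Without that filter its edgeR adjusted p was 0.919 and 0.900, and in smooth muscle-like cells its unadjusted p was under 0.05 with edgeR but not with DESeq2.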

How the results depend on the processing

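The count of members past the threshold was 0 under each of 70 combinations of class and alternative setting, which covered DESeq2, no TMM factors, no filter on low counts, at least 2000 UMIs or at most 5% mitochondrial UMIs per cell, equal zone weights, cells with no mural or red cell UMI, and each library left out, where the lone library of a diet was assumed to vary like the others. The differences between replicates 1 and 2 had a correlation over genes of 0.038 between the diets. This cannot settle whether replicate numbers pair the libraries. The 70 combinations also include a replicate block in each class and settings of the zone by diet interaction. With the block 0 members passed, while in endothelial-like cells 279 genes in all passed with it and 140 without it. Calls over all genes were 114 with DESeq2, 332 with no filter and 85 in cells with no mural or red cell UMI, and 152 to 224 with 1 library left out. With 1 library left out, the log2 fold change of Abcb1a ran from -0.11 to 0.089 (0.089 without control diet library 1 and 0.024 without PLX5622 diet library 2) and that of Abcc5 from -0.084 to 0.23 (-0.084 without control diet library 2), while Abcc4 ran from 0.11 to 0.32, Abcc6 from -0.57 to -0.15 and Abcb1b from 0.20 to 0.67. In cells with no mural or red cell UMI Abcb1b was 1.19 and Abcc1 0.0012. The lowest adjusted p over alternatives was 0.0942 for Abcc6, 0.104 for Abcc4, 0.317 for Abcg2, 0.404 for Abcb1b, 0.463 for Abcc5, 0.66 for Abcb1a and 0.71 for Abcc1. The vein-like over arterial-like log2 difference of Abcc5 was -0.69 with zones from marker scores, that of Abcc6 was -0.14 in cells with no mural or red cell UMI, against 0.18 in all cells, and that of Abcb1a was 0.13 without the smaller arterial cluster, an alternative chosen after seeing the data. For these 3 the cause was not tested. Cluster and score gave the same zone for 61.4% of cells. Slco2a1 passed with no filter and with the replicate block (1 call among uptake carriers each). Smooth muscle-like cells with at most 5% mitochondrial UMIs were too few to test. Depth limits Abcb1b and Abcc1, with 113 and 356 endothelial-like UMIs.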

Other observations

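Fenestrated endothelial-like cells, led by Plvap, were found only in the control diet libraries, 6 and 13 cells, so no diet comparison was possible. They held less Abcb1a than the barrier endothelium, with 168 and 168 CPM from 4 and 17 UMIs, against 1767 and 1434 CPM in endothelial-like cells of the same libraries. Abcg2 stood at 337 and 277 CPM from 8 and 28 UMIs, against 784 and 751 CPM, and Abcc4 at 84.1 and 109 CPM from 2 and 11 UMIs, against 201 and 162 CPM. Over the 16 zone sums, Abcg2 and Abcc5 had a Pearson's r of -0.703 and Abcb1a and Abcc6 one of 0.658, descriptions over sums that share 4 libraries. Fibroblast-like cells, 16 in all, had 0 UMIs of Abcb1a, Abcb1b, Abcc1 and Abcc6, and 5 of Abcc5.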
